A study of Mus musculus with 6 samples.

Results

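The enzymes of serine synthesis, glycine cleavage and folate one-carbon metabolism were compared between mouse neural stem cells with GFP signal from Spot14 (Spot14 GFP positive) and those without it (Spot14 GFP negative). The 10 members, chosen by name, were Phgdh, Psat1, Psph, Shmt1, Shmt2, Mthfd1, Mthfd1l, Mthfd2, Gldc and Aldh1l1, and all 10 had a probe set among the 18193 genes that the array annotation pairs with a probe set of 1 gene. Where a gene had several probe sets, the brightest on average stood for it, and all 10 passed the filter on low signal (log2 4 or more on at least 3 of 6 arrays). The series holds total RNA of 3 GFP positive and 3 GFP negative samples, called biological replicates by the submitters, each on 1 Affymetrix mouse array. Spot14 is the product of the thyroid hormone-responsive gene Thrsp, and the labels divide the cells by their Spot14 GFP status alone. The study's title speaks of adult neural stem cells; age in weeks, strain, reporter construct, other alleles, culture and sorting are not given in the sources used here, nor is it said whether the replicates came from separate animals. The p-values below then measure the spread between these samples, which may be in part technical.

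Serine is made in the cytosol from the glycolytic intermediate 3-phosphoglycerate by Phgdh, Psat1 and Psph, acting in that order. The Shmt enzymes pass a carbon unit of serine to tetrahydrofolate and release glycine, Shmt1 in the cytosol and Shmt2 in mitochondria. In mitochondria Mthfd2 oxidises this unit and Mthfd1l releases it as formate, which Mthfd1 takes up again in the cytosol for purine, thymidylate and methyl group synthesis. Gldc decarboxylates glycine in the mitochondrial glycine cleavage system. Aldh1l1 oxidises 10-formyltetrahydrofolate in the cytosol and is widely used as a marker of astrocytes. Mthfd2 is known for high expression in dividing and embryonic cells.

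The labelled cell type was checked against its markers. Of 9 neural stem cell markers 8 passed the filter and 2 of them rose, Gfap (1.50, limma adjusted p = 0.0188) and Nr2e1 (0.86, limma adjusted p = 0.0308). Prom1 lay near background (2.53 in GFP positive and 3.00 in GFP negative cells on the log2 scale). Of the 8 differences 6 were positive and 2 negative, those of Nes (−0.49, limma adjusted p = 0.364) and Fabp7 (−0.01, limma adjusted p = 0.983). None of 5 neuroblast and neuron markers, 1 of 6 microglia markers and 1 of 5 endothelial markers passed the filter. Of 5 oligodendrocyte progenitor markers 4 passed it and none of them rose or fell (limma, 0 higher and 2 lower at unadjusted p under 0.05), with Sox10 near background. Array medians lay between 3.55 and 3.66 on the log2 scale. GFP negative replicate 3 stood apart: it was the highest of its group for 9 of the 10 enzymes and received the lowest array weight (0.152), while GFP positive replicate 2 received the highest (8.35). Thrsp itself read 14.21 ± 0.10 in GFP positive and 13.56 ± 0.15 in GFP negative cells (SD, n = 3 each), a difference that missed the threshold (limma adjusted p = 0.0893).

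Of the 10 enzymes 2 fell in GFP positive cells, Mthfd2 and Mthfd1l of the mitochondrial folate branch, and none rose (limma, adjusted p under 0.05 over 10531 genes tested). Among all genes tested 2.11% fell and 2.35% rose, 4.46% in either direction. At an unadjusted limma p under 0.05, 4 members were lower and 1 higher, beside 8.28% and 9.92% of all genes tested. The members' median difference was −0.39 on the log2 scale, against 0.00 over all genes tested, with 7 negative and 3 positive. The 4 mitochondrial enzymes were all negative (median −0.86, or 1.82-fold lower). The 6 cytosolic enzymes were split, 3 positive and 3 negative, with a median of 0.11, which was −0.08 when probe sets with a cross-hybridisation suffix, and with them Phgdh, were left out. The groups did not overlap for 4 lower members and 1 higher member, where 11.5% and 13.8% of all genes tested did so. In such bulk samples fewer cells that express a gene and less RNA per cell cannot be told apart.

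**Figure D1:**
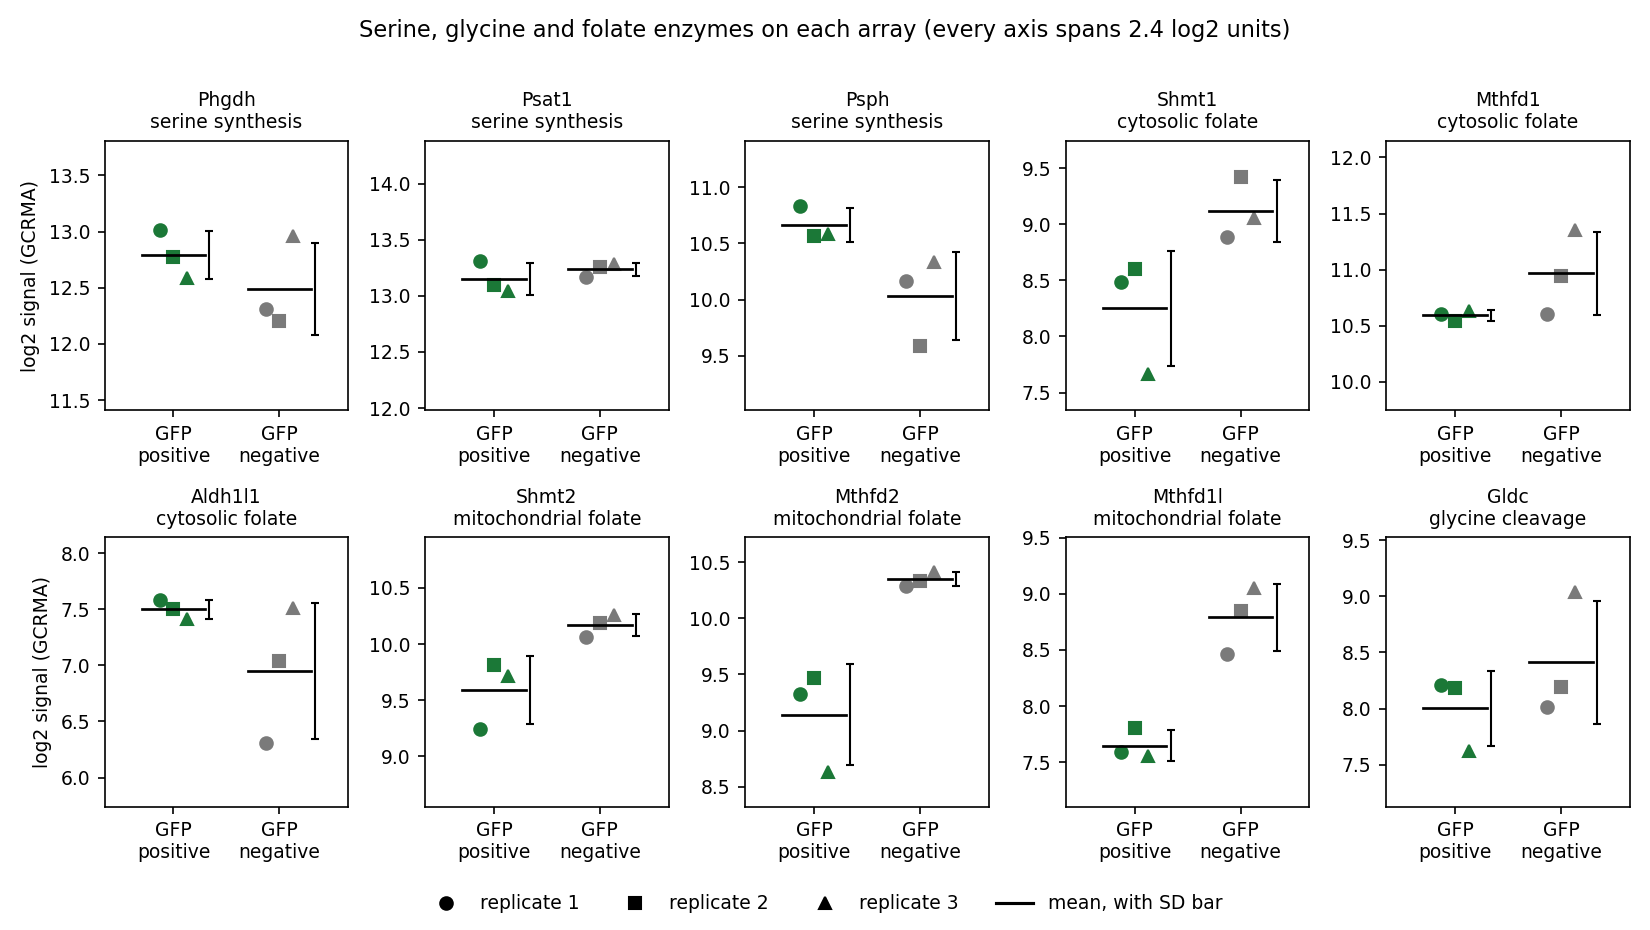
Log2 signal of the 10 enzymes on each array, GFP positive on the left and GFP negative on the right of each panel, with the group mean as a line and the SD (n = 3) as a bar; each axis spans the same log2 range. Mthfd2, Mthfd1l, Shmt2 and Shmt1 lie lower on all 3 GFP positive arrays, and Psph lies higher.

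Mthfd2 and Mthfd1l catalyse successive parts of the route from methylene-tetrahydrofolate to formate in mitochondria. Their promoters are shown because these were the 2 enzymes that fell. Each window runs from 250 bases before to 50 bases after a transcript start in RefSeq (GRCm38.p6) and is written 5′ to 3′ on the gene's strand, with matches to the CCAAT box in capitals (CCAAT, or ATTGG on the other strand). The window of Mthfd2 is chr6:83317555-83317854, minus strand, and that of Mthfd1l is chr10:3972825-3973124, plus strand.
Mthfd2: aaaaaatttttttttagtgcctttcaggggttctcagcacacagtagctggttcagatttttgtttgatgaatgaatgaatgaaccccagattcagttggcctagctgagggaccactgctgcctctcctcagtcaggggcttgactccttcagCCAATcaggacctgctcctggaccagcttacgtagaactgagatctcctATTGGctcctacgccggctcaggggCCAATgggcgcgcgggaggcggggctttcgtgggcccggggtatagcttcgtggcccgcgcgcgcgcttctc
Mthfd1l: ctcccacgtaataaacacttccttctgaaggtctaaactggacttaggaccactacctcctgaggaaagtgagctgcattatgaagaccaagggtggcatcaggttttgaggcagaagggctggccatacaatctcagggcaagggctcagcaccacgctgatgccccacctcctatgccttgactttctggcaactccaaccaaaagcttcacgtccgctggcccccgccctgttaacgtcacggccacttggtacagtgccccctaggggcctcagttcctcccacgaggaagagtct
The Mthfd2 window held 3 CCAAT matches and the Mthfd1l window held 0. All 10 members had a window in the table, 11 windows in all, of which 8 held a CCAAT box, as did 37.4% of the 32851 promoter windows of that length. Neither an ATF4 element (TGATGNAA), an E-box (CACGTG) nor an E2F site (TTTNGCGC), searched on both strands, was found in any of the 11 windows. These letters occurred in 3.97%, 7.15% and 1.38% of all windows. A match or its lack describes only these letters in this window.

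Mthfd2 measured 9.32, 9.47 and 8.63 on the GFP positive arrays, against 10.29, 10.33 and 10.42 on the GFP negative arrays (log2 signal). All 3 GFP positive arrays lay below all 3 GFP negative arrays, and GFP positive replicate 3 was the lowest. The means were 9.14 ± 0.45 in GFP positive and 10.35 ± 0.06 in GFP negative cells (SD, n = 3 each). The difference was −1.21 on the log2 scale, or 2.31-fold lower (SE 0.25, 95% interval −1.79 to −0.63, limma adjusted p = 0.0425). A further Mthfd2 probe set read 6.98, 7.10 and 6.68 in GFP positive and 7.39, 7.85 and 8.17 in GFP negative cells, again without overlap, and was 1.84-fold lower; in a fit of all probe sets neither passed (limma adjusted p = 0.0633 for the brighter and 0.136 for the dimmer). The call of Mthfd2 held only without GFP negative replicate 3 (limma adjusted p = 0.0404) when arrays were left out in turn. It was lost without GFP positive replicate 1 (0.131), 2 (0.0845) or 3 (0.127) and without GFP negative replicate 1 (0.0824) or 2 (0.122), with differences of −1.37 to −0.95 over the 6 fits.

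Mthfd1l measured 7.59, 7.80 and 7.55 on the GFP positive arrays, against 8.47, 8.85 and 9.05 on the GFP negative arrays. The groups did not overlap, and the highest GFP positive array lay well below the lowest GFP negative array. The means were 7.65 ± 0.13 in GFP positive and 8.79 ± 0.30 in GFP negative cells (SD, n = 3 each). Mthfd1l was 2.21-fold lower (−1.14, SE 0.21, 95% interval −1.63 to −0.65, limma adjusted p = 0.0306), measured by its single probe set. With arrays left out in turn the call held without GFP negative replicate 1 (limma adjusted p = 0.0312) or 3 (0.0223). Leaving out GFP negative replicate 2 (0.0993) or any of GFP positive replicates 1 (0.132), 2 (0.101) and 3 (0.140) ended it.

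A measure of RNA integrity was read from the control probe sets. The excess of 3′ over 5′ signal of the Gapdh and beta-actin controls, averaged on the log2 scale, was 1.52, 1.63 and 1.60 for GFP positive samples, against 1.51, 2.49 and 1.82 for GFP negative samples. With this ratio as a covariate, Mthfd2 differed by −1.20 and Mthfd1l by −1.04, and neither passed (limma adjusted p = 0.175 and 0.156).

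Shmt2, the mitochondrial serine hydroxymethyltransferase, measured 9.24, 9.81 and 9.71 in GFP positive and 10.06, 10.19 and 10.26 in GFP negative cells. The groups did not overlap, but the difference of −0.58 (SE 0.21, 95% interval −1.06 to −0.10) did not pass (limma adjusted p = 0.186). The other Shmt2 probe sets above the filter did not share this separation. One read 7.22 ± 0.43 in GFP positive and 7.56 ± 0.87 in GFP negative cells, and another 8.42 ± 0.26 in GFP positive and 8.33 ± 0.11 in GFP negative cells (SD, n = 3 each). The first differed by −0.34 and the other by 0.09, so that the direction for Shmt2 depends on the probe set. The probe set used carries a suffix that marks possible cross-hybridisation, and so does the one at 0.09. With such probe sets left out Shmt2 differed by −0.34 (limma adjusted p = 0.770). Averaged over its probe sets Shmt2 differed by −0.28 (limma adjusted p = 0.520).

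Gldc, the glycine decarboxylase, measured 8.21, 8.18 and 7.62 in GFP positive and 8.01, 8.19 and 9.03 in GFP negative cells. The groups overlapped, with GFP negative replicate 3 far above the rest. The difference was −0.41 (95% interval −1.14 to 0.33, limma adjusted p = 0.583). It was −0.10 without that array and −0.61 without GFP negative replicate 1. Of its partners in the glycine cleavage system both that were tested missed the threshold: Gcsh, which carries the aminomethyl group, differed by −0.06 and Dld, the dehydrogenase, by 0.25.

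In the cytosolic branch none of the 3 folate enzymes rose or fell (limma, 0 higher and 1 lower at unadjusted p under 0.05). Shmt1, the cytosolic serine hydroxymethyltransferase, measured 8.49, 8.61 and 7.66 in GFP positive and 8.88, 9.42 and 9.05 in GFP negative cells. Every GFP positive array lay below every GFP negative array, and GFP positive replicate 3 was far below the others. The difference of −0.87, or 1.83-fold lower (SE 0.29, 95% interval −1.55 to −0.18), did not pass (limma adjusted p = 0.166) and was −0.57 without GFP positive replicate 3. The other Shmt1 probe sets above the filter also separated the groups, with differences of −0.90 and −1.88, each with limma adjusted p = 0.101 in the fit of all probe sets. Averaged over its probe sets Shmt1 differed by −1.22 (limma adjusted p = 0.0573).

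Mthfd1, the trifunctional enzyme that takes formate back into the cytosolic folate pool, measured 10.60, 10.54 and 10.63 in GFP positive and 10.61, 10.94 and 11.35 in GFP negative cells. The GFP positive arrays were nearly level and overlapped with GFP negative replicate 1. The difference was −0.38 (SE 0.22, 95% interval −0.90 to 0.14, limma adjusted p = 0.449). It was −0.18 without GFP negative replicate 3 and at its largest, −0.56, without GFP negative replicate 1. Its other probe sets differed by −0.42, with no overlap of the groups, and by −0.04.

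Aldh1l1 measured 7.58, 7.50 and 7.41 in GFP positive and 6.30, 7.04 and 7.51 in GFP negative cells. The GFP positive arrays lay close together, and the highest GFP negative array, replicate 3, lay among them. The difference of 0.55 (SE 0.30, 95% interval −0.16 to 1.26) did not pass (limma adjusted p = 0.414) and rested on single arrays. It was 0.23 without GFP negative replicate 1 (limma adjusted p = 0.629) and 0.83 without GFP negative replicate 3 (0.0705). The other Aldh1l1 probe set lay near background (2.14 in GFP positive and 2.12 in GFP negative cells). Of a list of astrocyte markers without Aldh1l1, 5 of 9 tested rose, among them Cldn10 (3.01) and Slc6a11 (1.53), with a median of 1.20. Cldn10 averaged 3.71 in GFP negative cells, below the log2 4 of the filter. The summed linear signal of the 10 markers on the array was between 75300 and 86700 in GFP positive cells, against 39500 to 52200 in GFP negative cells. Gjb6 lay near background in both groups. The count of 5 was 0 when any of the 3 GFP positive arrays was left out and 2 without GFP negative replicate 2. In these fits 7 or 8 markers were higher at an unadjusted limma p under 0.05. The part of the astrocyte markers in the Aldh1l1 values was not tested.

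**Figure D2:**
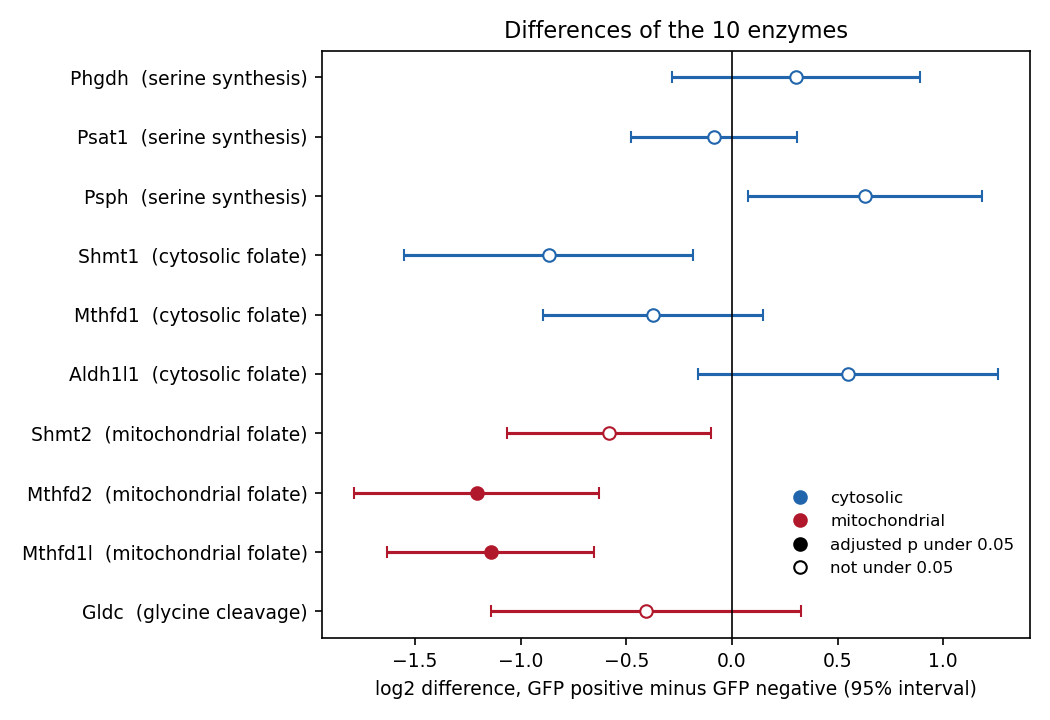
Log2 differences, GFP positive minus GFP negative, with 95% limma intervals for the 10 enzymes, ordered by role; filled points passed an adjusted p under 0.05. Mthfd2 (−1.21) and Mthfd1l (−1.14) passed, and the intervals of Phgdh, Psat1, Mthfd1, Aldh1l1 and Gldc include 0.

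Of the 3 serine synthesis enzymes none rose or fell (limma, 1 of them higher and 0 lower at unadjusted p under 0.05). Phgdh, the dehydrogenase that opens the route, measured 13.02, 12.78 and 12.59 in GFP positive and 12.31, 12.20 and 12.96 in GFP negative cells. GFP negative replicate 3 lay among the GFP positive arrays, and the others of its group lay below them. The difference was 0.30 (SE 0.25, 95% interval −0.28 to 0.89, limma adjusted p = 0.610). It was 0.16 without GFP negative replicate 2 (limma adjusted p = 0.819), 0.19 without GFP positive replicate 1 (0.834) and 0.54 without GFP negative replicate 3 (0.0999). All 4 Phgdh probe sets carry a suffix that marks possible cross-hybridisation, and 2 more that are also annotated to other genes were not used. The 4 differed by 0.30 to 0.88, all positive.

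Psat1, the aminotransferase of the route, measured 13.31, 13.10 and 13.05 in GFP positive and 13.17, 13.26 and 13.28 in GFP negative cells. The groups overlapped, and the difference was −0.08 (95% interval −0.48 to 0.31, limma adjusted p = 0.857). With arrays left out in turn it was −0.17 without GFP positive replicate 1 and nearest to 0 (−0.03) without GFP positive replicate 3. Its other probe set differed by −0.06. The interval includes decreases of up to 0.48 and increases of up to 0.31.

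Psph, the phosphatase that completes serine synthesis, measured 10.84, 10.57 and 10.58 in GFP positive and 10.16, 9.59 and 10.34 in GFP negative cells. It was the only member whose GFP positive arrays all lay above the GFP negative ones. The difference of 0.63, or 1.55-fold higher (SE 0.24, 95% interval 0.08 to 1.18), did not pass (limma adjusted p = 0.210). Of the 16 alternatives it passed only with array weights (0.72, limma adjusted p = 0.0365), a fit that gave GFP positive replicate 2 a weight of 8.35 beside 0.833 and 1.22 for the others of its group. It was 0.41 without GFP negative replicate 2 (limma adjusted p = 0.402) and 0.38 with the 3′ to 5′ covariate (0.595).

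**Figure D3:**
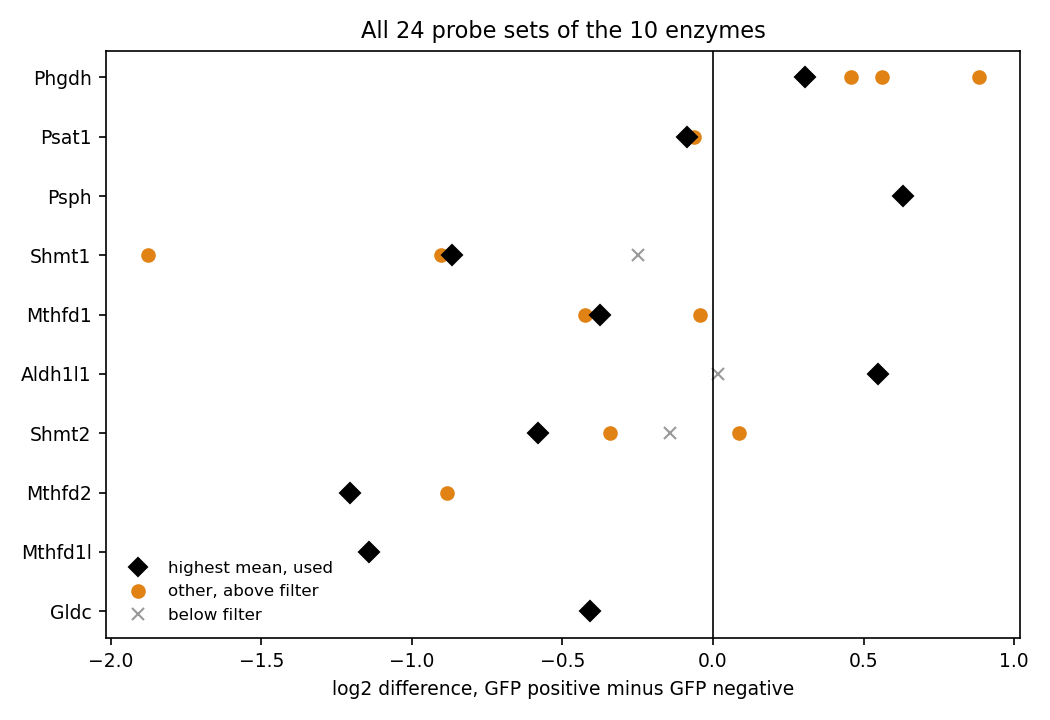
Log2 difference, GFP positive minus GFP negative, of each of the 24 probe sets of the 10 enzymes; diamonds mark the probe set used, circles the others above the filter and crosses those below it. All tested probe sets of Phgdh are positive and all of Shmt1, Mthfd2 and Mthfd1 negative, while those of Shmt2 run from −0.58 to 0.09.

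The mitochondrial and cytosolic steps were then set against each other within arrays. For each pair of enzymes with related reactions, each gene was centred on its mean over the 6 arrays and the cytosolic value subtracted from the mitochondrial one, which compares their changes and not their levels. Mthfd1l minus Mthfd1 was −0.45, −0.18 and −0.52 in GFP positive cells, against 0.42, 0.47 and 0.26 in GFP negative cells. The groups did not overlap, and they differed by −0.77 on the log2 scale. Mthfd2 minus Mthfd1 was −0.25, −0.04 and −0.97 in GFP positive and 0.72, 0.43 and 0.10 in GFP negative cells, a difference of −0.83 again without overlap. For both, an exact 2-sided permutation test gave p = 0.1, the smallest that 3 against 3 allows, and 0.15 after Benjamini-Hochberg adjustment over the 3 pairs, so this test could not reach the threshold with 6 arrays. Both pairs share Mthfd1.

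Shmt2 minus Shmt1 was −0.44, 0.01 and 0.86 in GFP positive and −0.01, −0.43 and 0.01 in GFP negative cells. The groups overlapped, and the difference of 0.29 was within the spread of the GFP positive arrays (SD 0.66; exact permutation p = 0.7). GFP positive replicate 3 decided its sign: without it the difference was −0.07. The probe sets also decided its size: with the mean of all probe sets of each gene the difference was 0.94, with an exact permutation p of 0.1, the smallest this test can give.

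**Figure D4:**
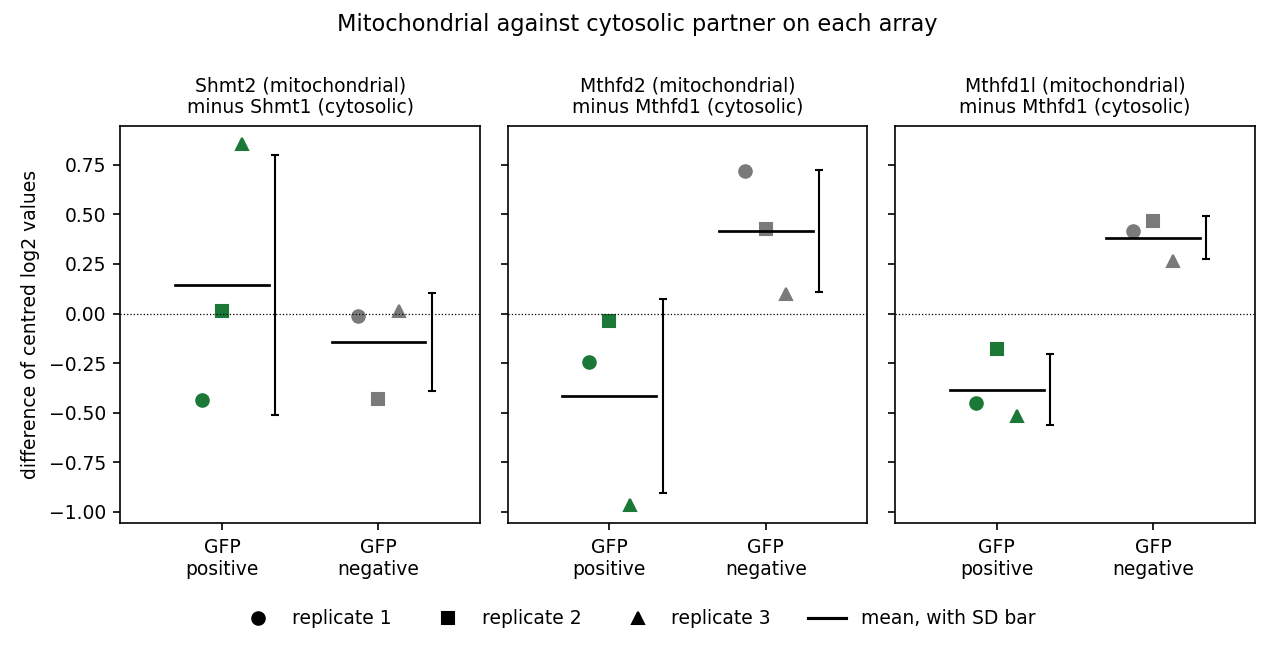
Centred log2 value of the mitochondrial enzyme minus that of its cytosolic partner on each array, with group means as lines and SD (n = 3) as bars, GFP positive on the left. The groups separate for Mthfd2 (−0.83) and Mthfd1l (−0.77) against Mthfd1 and overlap for Shmt2 against Shmt1.

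Among 41 further genes of serine, glycine, folate and methionine metabolism and their regulators, 26 were tested and none passed (limma, with 6 higher and 2 lower at unadjusted p under 0.05). Their median difference was 0.13. Of 5 other genes of mitochondrial folate steps 3 were negative and 2 positive. Sfxn1, a mitochondrial serine transporter, differed by −0.11 (limma adjusted p = 0.837), and Aldh1l2, which oxidises 10-formyltetrahydrofolate in mitochondria, by 0.10 (0.815). Mthfd2l, the isozyme of Mthfd2, measured 9.39 ± 0.30 in GFP positive and 9.62 ± 0.17 in GFP negative cells (SD, n = 3 each). Its difference of −0.23 had a limma adjusted p of 0.654.

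In the cytosol 2 of 7 further folate genes were tested. Atic and Gart, enzymes of purine synthesis that use formyl-tetrahydrofolate, differed by −0.39 and −0.52 and did not pass (limma adjusted p = 0.642 and 0.486). Tyms lay near background (3.08 in GFP positive and 3.17 in GFP negative cells). Of the folate carriers and retaining enzymes, the 2 brightest were Ggh, a hydrolase of folate polyglutamates (0.25), and Slc46a1, a folate transporter (0.55), and neither passed (limma adjusted p = 0.616 and 0.443).

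The methionine cycle and transsulfuration list had 7 tested genes, 5 positive and 2 negative, with a median of 0.46. Its brightest members were Ahcyl1, a relative of adenosylhomocysteinase (0.46), and Cbs, which joins homocysteine and serine (0.68), with limma adjusted p of 0.227 and 0.273. The 2 negative genes were Ahcy (−0.74) and Mtr (−0.54), with limma adjusted p of 0.209 and 0.190. Cbs read 10.94 ± 0.09 in GFP positive and 10.26 ± 0.57 in GFP negative cells (SD, n = 3 each). It passed without GFP negative replicate 3. Among genes of serine and glycine transport the brightest were Slc1a4, a serine carrier (0.07), and Slc6a9, a glycine transporter (0.44), which did not pass (limma adjusted p = 0.897 and 0.227).

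The transcription factor Atf4, an activator of many of these genes under amino acid shortage, measured 12.55, 12.24 and 12.10 in GFP positive and 12.26, 12.15 and 12.73 in GFP negative cells. The groups overlapped (−0.08, limma adjusted p = 0.903). Nfe2l2, known in other cells to raise serine synthesis genes through Atf4, differed by 0.29 (limma adjusted p = 0.531).

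The median of the mitochondrial enzymes varied across the arrays side by side with that of genes of cell division. Relative to each gene's mean over the 6 arrays, the median of the 4 mitochondrial enzymes was −0.53, −0.17 and −0.63 in GFP positive cells, against 0.21, 0.45 and 0.75 in GFP negative cells (replicates 1, 2 and 3 of each). The median of 11 mitosis genes was −0.93, −0.60 and −1.31 in GFP positive cells, against 0.58, 0.91 and 1.41 in GFP negative cells. The 12 DNA replication genes gave −0.45, −0.38 and −0.72 in GFP positive cells, against 0.37, 0.58 and 0.78 in GFP negative cells. These 3 medians ranked the 6 arrays in the same order. Of the mitochondrial enzymes themselves, Mthfd2 and Mthfd1l followed this order, and Shmt2 and Gldc did not. Shmt2 was lowest on GFP positive replicate 1 (−0.64). Gldc overlapped between the groups, with 0.01 on GFP positive replicate 1 and −0.20 on GFP negative replicate 1. Of the mitosis genes 10 of 11 fell, most of all the checkpoint kinase Ttk (−2.68) and the kinetochore motor Cenpe (−2.55). Among these 10, Plk1 passed the filter only through the GFP negative arrays (3.11 in GFP positive and 4.99 in GFP negative cells). With the filter at log2 6, 8 mitosis genes were tested and 8 fell. The summed linear signal of the mitosis genes was between 966 and 1550 in GFP positive cells, against 3470 to 6450 in GFP negative cells. Of the replication genes 5 of 12 fell, among them Mcm5, a subunit of the replicative helicase (−1.91), and Cdc6, which helps to load it (−1.74). Their sums were between 11400 and 13000 in GFP positive cells, against 17000 to 19300 in GFP negative cells. The counts past the threshold changed with single arrays: without GFP positive replicate 1 or 3, 0 genes of either list passed. Of all genes tested, 2 were higher and 0 lower without replicate 1, and 1 and 0 without replicate 3. At an unadjusted limma p under 0.05, 11 mitosis and 9 replication genes were lower in either fit, beside 702 and 529 of all 10531. Without GFP positive replicate 2 the counts past the threshold were 4 mitosis and 2 replication genes, and without GFP negative replicate 2 they were 1 and 0. The part of cell division in the enzyme values was not tested.

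The serine synthesis enzymes ranked the arrays otherwise. Their median was 0.37, 0.14 and −0.05 in GFP positive cells, against −0.18, −0.44 and 0.09 in GFP negative cells, so the groups overlapped.

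**Figure D5:**
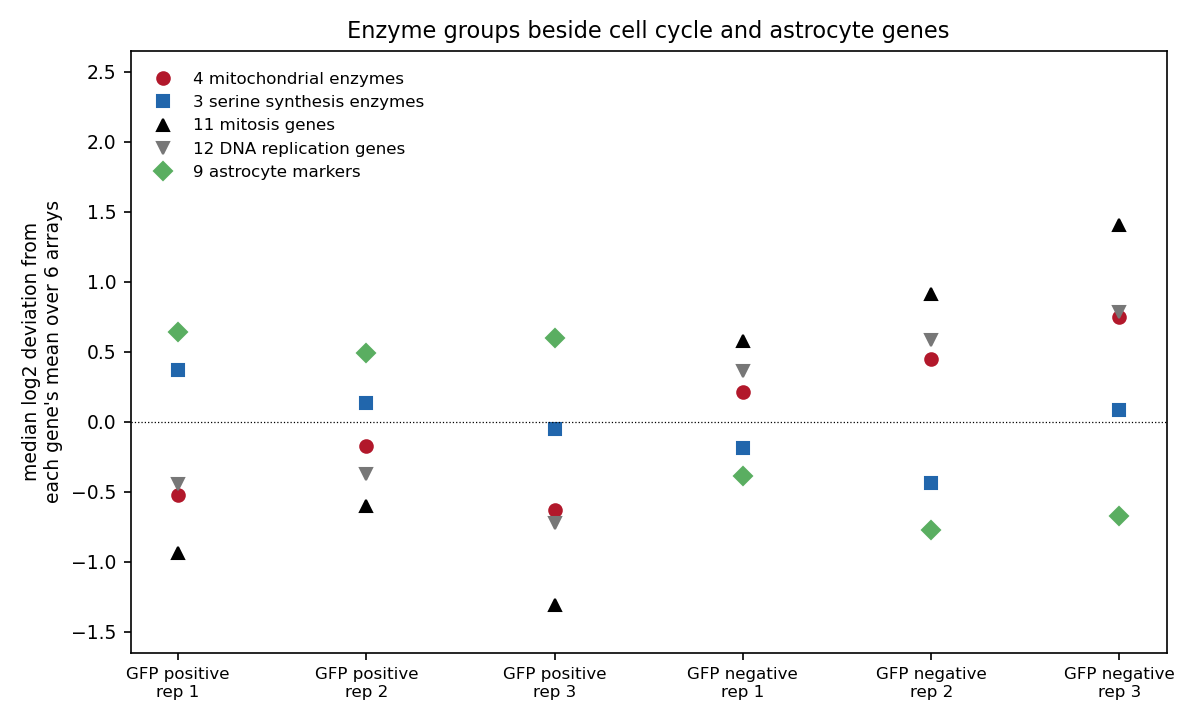
Median log2 deviation from each gene's mean over the 6 arrays, for 5 groups of genes on each array, GFP positive arrays on the left. The median of the mitochondrial enzymes lies below 0 on the GFP positive arrays and above 0 on the GFP negative arrays. So do those of the mitosis and replication genes, while that of the serine synthesis enzymes overlaps between groups.

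Likeness of pattern was described by Pearson's r over the 6 arrays. The arrays form 2 groups, so genes that separate the groups score high with each other, and r carries no test. Among the members, Mthfd2 was most like Shmt1 (r = 0.94) and Mthfd1l (0.92), and Mthfd1l was like Shmt2 (0.88). Psph ran against Shmt2 (−0.77), Mthfd1l (−0.76) and Shmt1 (−0.73), and with Phgdh (0.81). Clone and predicted names were left out of the comparison with the other genes tested. Of the rest, the 2 most like Mthfd1l were Kif4, a kinesin of chromosome condensation (0.999), and Mki67, the proliferation antigen Ki-67 (0.998). An r above 0.95 was reached by 212 genes for Mthfd1l. Members whose groups overlapped had counts on both sides of this, with 233 for Gldc, 197 for Phgdh and 18 for Psat1. The 2 most like Mthfd2 were Fam111a and Tsr2 (0.996 each). For Shmt2 they were Hdgf and Dbr1, for Shmt1 Hunk and Aif1l, and for Mthfd1 Itprip and Ttc39a. Phgdh was most like Hsd17b4, an enzyme of peroxisomal fatty acid oxidation (0.998), and Gstt1, and Psph most like Cish and Ezh1. For Psat1 they were Eef1akmt2 and Alcam, for Aldh1l1 Borcs8 and Ufsp2, and for Gldc Rnf10 and Fbxo16, all with r of at least 0.985.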

How the data were processed

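The 6 samples, 3 per group, were measured on 1 Affymetrix array each. The deposited table holds log2 values; the submitters' processing notes name GCRMA. No source used here gives a version or a genome build. That method models background on probe sequence, so dim values sit at a floor. It gives the probes of all arrays 1 distribution, so a shift of all genes would be hidden. The array medians of the resulting probe set values still ran from 3.55 to 3.66. No further normalization was applied to the 45101 probe sets, of which 34945 name 1 gene; 932 with several or no symbols and 9211 without an entry were not used. Gene identifiers of 34741 were found in RefSeq (GRCm38.p6), and 0 symbols changed. Precision is set by having only 3 arrays a group.

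Groups follow the sample titles. Differences were fitted by limma 3.58.1 under R 4.3.3, with moderated variances and no covariate, over 10531 genes. Benjamini-Hochberg adjustment, a threshold of 0.05 and 95% intervals were used. On simulated data the fit recovered 0% of added log2 changes of 0.5, 22% of 1, 80% of 2 and 96% of 3. A gene that missed the threshold is therefore not shown to be unchanged. Pairs of enzymes were compared with an exact 2-sided permutation test. Alternatives were the filter, added quantile or median scaling, other probe set choices, trend and robust settings, array weights, a replicate block, a 3′ to 5′ covariate and each array left out. Members and lists were chosen with earlier results of these data known. Named were all members, and per member the 2 genes most like it, clone and predicted names left out. Of each pathway list those past the threshold were named, or else the 2 brightest. Of marker lists up to 2 past the threshold per direction were named. Genes outside this rule (Gcsh, Dld, Mthfd2l, Tyms, Ahcy, Mtr, Prom1, Sox10, Gjb6, Nes, Fabp7, Plk1) were added after their values were seen.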

Additional observations from a re-analysis of the deposited data

How the results depend on the processing

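Of the 10 enzymes 2 were lower under the stricter filter, added quantile or median scaling, the other probe set choices, trend and robust settings and array weights, and without GFP negative replicate 3. The number lower was 0 without a filter (18193 genes tested; 4 lower at an unadjusted p under 0.05), with the 3′ to 5′ covariate (2 unadjusted) and with the replicate block (3 unadjusted), and it was 0 to 2 with arrays left out in turn. With array weights 1 enzyme (Psph), 3 pathway genes (Cbs, Ahcyl1 and Mtrr) were higher and 1 (Mtr) lower; over the arrays left out 0 to 1 pathway genes were higher (Cbs without GFP negative replicate 3). Mthfd2 and Mthfd1l kept their sign in all 16 alternatives, and had limma adjusted p of 0.0929 and 0.0548 without a filter and 0.126 and 0.114 with the replicate block.

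Over all genes tested, 248 higher and 222 lower became 1051 and 603 with array weights, 19 and 8 with the replicate block and 9 and 0 with the covariate, and 101 lower without a filter; with arrays left out they ran from 1 to 801 and from 0 to 443. After median scaling they were 324 and 209. Mitosis genes lower numbered 1 without a filter and 0 with the block or the covariate (11 unadjusted in each). With arrays left out they numbered 0 to 11 (11 unadjusted in each). Replication genes lower numbered 0 without a filter, with the block or with the covariate (9 unadjusted in each) and 9 with array weights. With arrays left out they numbered 0 to 7 (9 to 10 unadjusted). Astrocyte markers higher numbered 3 without a filter, 8 with the mean of all probe sets and 0 with the block or the covariate (7 unadjusted in each). Arrays left out in turn gave 0 to 7 (7 to 9 unadjusted). Deviations of same-numbered arrays correlated at −0.253, 0.053 and −0.50 across genes, and those of differently numbered arrays at −0.376 to 0.444. With 3 arrays a group these values cannot decide whether the numbers pair the samples, and the labels do not say.

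Without arrays in turn, the pair differences ran from −0.87 to −0.70 for Mthfd1l minus Mthfd1, −1.02 to −0.56 for Mthfd2 minus Mthfd1 and −0.0693 to 0.58 for Shmt2 minus Shmt1, which changed sign (−0.0693) without GFP positive replicate 3. With the mean of all probe sets Shmt2 minus Shmt1 was 0.94 (exact permutation p = 0.1), outside that range, while Mthfd2 minus Mthfd1 was −0.76 and Mthfd1l minus Mthfd1 −0.86. The median of the mitochondrial enzymes ran from −0.96 to −0.77 and that of the cytosolic ones from 0.01 to 0.24. When cross-hybridising probe sets, and with them Phgdh, were left out, the cytosolic median was −0.08, of opposite sign. Some settings used fewer arrays or more genes, and the causes of these changes were not tested.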
